A study of Mus musculus with 12 samples.

Results

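Caveolae are small flask-shaped pits of the plasma membrane, and the 6 genes described here, Cav1, Cav2, Cavin1, Cavin2, Cavin3 and Ehd2, encode their coat and the protein that holds their neck. They were taken by gene symbol from the 55281 genes of the count table, and all 6 passed the filter on low counts. Poly(A) RNA was sequenced from the gonadal white adipose tissue (GWAT) of male Hoip fl/fl mice. WT mice carried no Cre (AdipoQ.Cre-), and HoipA-KO littermates carried AdipoQ.Cre+, which deletes Hoip (Rnf31) in mature adipocytes and not in the other cells of the tissue. Each genotype received a control diet (CD) with 14% fat or a high-fat diet (HFD) with 60% fat from 6 weeks of age for 16 weeks, and mice were 22 to 24 weeks old at harvest. Each of the 4 groups held 3 libraries, and each library pooled the tissue of 3 mice.

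Caveolin-1, from Cav1, is the scaffold of the caveolar coat, and caveolin-2 assembles with it. Cavin-1, from Cavin1, is the peripheral coat protein without which caveolae do not form, while cavin-2 and cavin-3 bind it and shape the coat. EHD2 is an ATPase that surrounds the neck of the pit and keeps it at the cell surface. Adipocytes are among the cells richest in caveolae, where the pits hold insulin receptors and take part in fatty acid uptake and in the reserve of membrane that lets the cell swell with lipid. Endothelial and smooth muscle cells have many caveolae too. Loss of CAV1 or of CAVIN1 causes lipodystrophy in humans and mice.

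The libraries held 30513500 to 60540260 counts on genes, with a median of 48291955, and a floor of 3 counts corresponds to 0.0496 to 0.0983 CPM (CPM are counts relative to the library total, printed here after scaling by the trimmed mean of M values, TMM). Rnf31, the targeted gene, lay between 12.6 and 20.7 CPM in the WT libraries and between 17.9 and 22.6 CPM in the HoipA-KO libraries, but a count over the whole gene in a tissue where other cells keep it does not check the deletion. All 10 adipocyte markers were present in all libraries. WT CD replicates 2 and 3 stood apart. Markers of epididymal epithelium took 1.51% of the counts of WT CD replicate 2, and markers of testis germ cells took 1.03% of those of replicate 3. HoipA-KO HFD replicate 1 also differed from its group in smooth muscle markers. Replicates 1 and 3 of that group both held epididymal markers, given with the marker lists. The correlation across genes with the other 2 WT CD libraries was 0.907 and 0.785 for replicate 1, and 0.794 between replicates 2 and 3, against 0.971 to 0.993 within the other groups. The tests below leave out WT CD replicate 3, as the study did in its gene tables, and the values with all 12 libraries stand beside them. Each library is a pool, and nothing says that the pools were independent cohorts. The p-values therefore set a difference against the spread between these pools only, which is estimated over all groups in the fit.

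The members sit at 5 places in the mouse genome (GRCm38, GENCODE vM21). Cav1, on chr6:17306335-17341452, and Cav2, on chr6:17281185-17289115, are neighbours on the plus strand, 17219 bases apart. Cavin1 lies on chr11:100956733-100970887 of the minus strand, Cavin2 on chr1:51289126-51302960 of the plus strand, Cavin3 on chr7:105480083-105482300 of the minus strand and Ehd2 on chr7:15946958-15967567 of the minus strand. All are protein coding. The antisense gene Gm15581 overlaps both Cav1 and Cav2, 9330175M20Rik lies antisense to Cavin2, and Gm45667 lies on the other strand of Cavin3. These overlapping genes reached at most 0.34 CPM, and reads from a gene and its antisense partner could be split between them only as far as the counting used strand, for which the setting is not given in the sources used here.

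The 250 bases before the start of 5 of the 6 members, with starts from RefSeq (GRCm38.p6), are shown. They lie at chr6:17306085-17306334 of the plus strand for Cav1, chr6:17280935-17281184 of the plus strand for Cav2, chr11:100970618-100970867 of the minus strand for Cavin1, chr1:51288876-51289125 of the plus strand for Cavin2 and chr7:15967536-15967785 of the minus strand for Ehd2. Set against the GENCODE positions above, the window of Cavin1 lies inside the gene and that of Ehd2 partly so. Each window is written 5′ to 3′ toward the RefSeq start. Capitals mark the GC box (GGGCGG), the CCAAT box with those letters or the TATA box (TATAAA) on either strand.
Cav1: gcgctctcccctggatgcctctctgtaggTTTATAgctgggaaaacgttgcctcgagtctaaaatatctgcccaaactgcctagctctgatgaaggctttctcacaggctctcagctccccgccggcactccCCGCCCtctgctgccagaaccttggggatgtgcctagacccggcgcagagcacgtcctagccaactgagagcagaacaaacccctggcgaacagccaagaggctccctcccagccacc
Cav2: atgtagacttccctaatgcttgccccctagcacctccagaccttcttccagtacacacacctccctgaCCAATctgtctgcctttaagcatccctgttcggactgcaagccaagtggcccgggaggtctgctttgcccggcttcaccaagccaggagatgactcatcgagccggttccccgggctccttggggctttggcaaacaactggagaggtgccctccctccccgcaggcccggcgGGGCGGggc
Cavin1: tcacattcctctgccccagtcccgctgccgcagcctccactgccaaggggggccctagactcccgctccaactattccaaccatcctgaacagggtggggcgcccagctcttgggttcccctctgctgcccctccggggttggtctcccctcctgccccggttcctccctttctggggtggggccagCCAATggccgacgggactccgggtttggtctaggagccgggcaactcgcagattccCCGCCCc
Cavin2: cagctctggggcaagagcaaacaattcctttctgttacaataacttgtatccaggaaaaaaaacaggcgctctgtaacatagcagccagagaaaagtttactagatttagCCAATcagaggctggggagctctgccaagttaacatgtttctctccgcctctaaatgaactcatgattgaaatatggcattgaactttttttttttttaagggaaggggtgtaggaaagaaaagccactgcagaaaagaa
Ehd2: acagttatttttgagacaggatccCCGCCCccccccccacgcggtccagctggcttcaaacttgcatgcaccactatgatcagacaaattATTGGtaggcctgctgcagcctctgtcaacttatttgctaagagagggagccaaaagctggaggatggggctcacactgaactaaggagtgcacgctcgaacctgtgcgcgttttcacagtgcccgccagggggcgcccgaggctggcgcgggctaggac

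A GC box stood in 4 of these 5 windows, those of Cav1, Cav2, Cavin1 and Ehd2, and in 32.7% of the 32817 mouse promoters of the same length. A CCAAT box stood in 4 of 5, all but Cav1, against 33.8% of all promoters. TATAAA matched only in Cav1, and begins 221 bases before its start, against 12.4% of all promoters. The window of Cavin2 differed from the rest in its base composition, with 40.4% G and C, while the other 4 had 58% to 67.6% and the median promoter 52.4%. None of the 5 held the direct repeat bound by PPARγ with RXR (its half-site repeated with any 1 base between, present in 0.0335% of promoters), the half-site AGGTCA itself (14%) or the E-box CACGTG (6.02%). The C/EBP core TTNCNNAA matched at 2 positions in Cav2 and in no other window, against 36.8% of promoters. RefSeq lists another start of Cav1, inside the gene, and its window (chr6:17307390-17307639 of the plus strand, 60.8% G and C) held none of the motifs searched. Such matches describe the letters only, and no motif was shared by all 5 windows shown.

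Per length of the principal transcript, Cav1 was the most abundant member in WT. It reached 851 ± 587 CPM per kb in WT CD and 1032 ± 223 in WT HFD (SD, n = 3). Cavin1 came next, with 294 ± 192 and 486 ± 36.5 CPM per kb. The level of Cavin1 in WT HFD lay below that of Cav1 without overlap, since its highest library stood at 517 and the lowest of Cav1 at 822. In WT HFD the other 4 lay close together, from 166 ± 8.23 for Cavin2 to 189 ± 24.8 for Ehd2, and neighbours in this order did not differ beyond their spread. In HoipA-KO the gap between the leading pair had narrowed, to 323 ± 13.6 for Cav1 and 218 ± 23.3 for Cavin1 on CD and to 291 ± 89.4 and 225 ± 42.1 on HFD, and on HFD their libraries overlapped. Together the 6 genes took 0.309% to 0.8% of all counts in the WT libraries and 0.169% to 0.312% in the HoipA-KO libraries. Their counterparts of muscle were scarce in both genotypes, Cav3 with 0.0552 to 0.746 CPM and Cavin4 with 0.184 to 1.06 CPM.

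**Figure D1:**
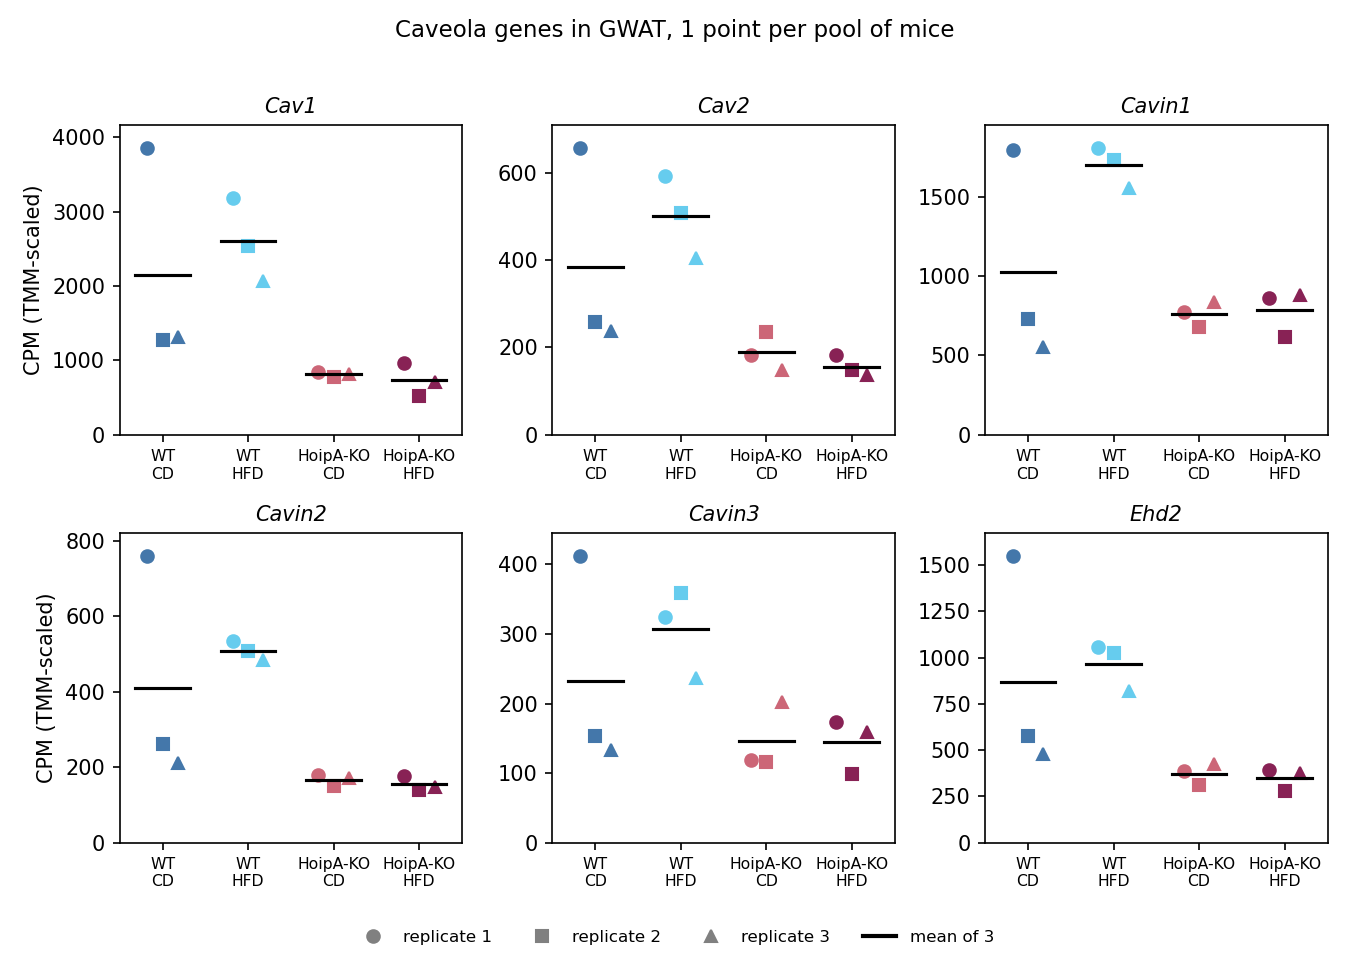
CPM of the 6 caveola genes (vertical axes from 0, TMM-scaled) in each of the 12 libraries, with 1 symbol per replicate and a line at the mean of 3. On HFD every HoipA-KO library lies below every WT library for all 6 genes, while WT CD replicate 1 stands far above WT CD replicates 2 and 3 in every panel.

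The first comparison set HoipA-KO against WT on the HFD and asked how the caveolar coat differs when adipocytes lack HOIP in obesity. All 6 genes were lower in HoipA-KO, at 0.282 to 0.469 times the fitted WT level. Of the 6 genes, 5 fell, with Benjamini-Hochberg adjusted p below 0.05 over 18427 genes in the quasi-likelihood test of edgeR, while 7.62% of all genes tested were called lower and 11.8% in either direction. The median log2 change of the 6 was -1.57 and that of all genes 0.06. In a bulk tissue, fewer adipocytes and less of an RNA per adipocyte cannot be told apart.

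Cav1 had 3190.3, 2545 and 2072 CPM in the WT HFD pools and 969.7, 520.2 and 711 CPM in the HoipA-KO HFD pools. The highest knockout pool had less than the lowest WT pool. The log2 change was -1.83 ± 0.394 (SE), with an adjusted p of 0.023 in edgeR. Cav2, its partner, had 592, 508 and 405 CPM in WT HFD and 183, 149 and 137 CPM in HoipA-KO HFD, again with no overlap. The log2 change of Cav2 was -1.68 ± 0.333, with an adjusted p of 0.0175 in edgeR.

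Of the cavins, Cavin2 changed most. It had 534, 507 and 484 CPM in WT HFD and 177, 139.96 and 148 CPM in HoipA-KO HFD, and replicates of either genotype lay close together. On the log2 scale it fell by 1.72 ± 0.323, with an adjusted p of 0.0153 in edgeR. Cavin1, which is needed for the pits to form, had 1805, 1729.6 and 1556 CPM in WT HFD and 864, 618 and 879 CPM in HoipA-KO HFD. Groups did not overlap here either, and the change was smaller, -1.11 ± 0.303 on the log2 scale with an adjusted p of 0.0447 in edgeR.

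Cavin3 had 325, 359 and 237 CPM in WT HFD and 174, 98.8 and 159 CPM in HoipA-KO HFD. It was the member that did not pass, with a log2 change of -1.09 ± 0.387 and an adjusted p of 0.091 in edgeR, although its groups did not overlap. Ehd2, the gene of the neck ATPase, had 1054.5, 1022 and 820.1 CPM in WT HFD and 389.8, 281 and 378.5 CPM in HoipA-KO HFD. On the log2 scale Ehd2 fell by 1.47 ± 0.33, with an adjusted p of 0.026 in edgeR. The count of genes whose HoipA-KO libraries all lay below all WT HFD libraries was 6 of 6, against 23% of all genes.

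The size of these changes on HFD moved little with the settings tried, from -1.25 to -0.88 for Cavin3, the widest in relative terms, and from -1.82 to -1.62 for Cavin2, but the calls did not hold as well. With all 12 libraries in the fit, only Cav2 stayed under 0.05 (adjusted p of 0.0457 in edgeR), with 0.0532 to 0.179 for the rest, and 2.25% of all genes were called lower. No member was called without WT HFD replicate 1, WT HFD replicate 2, HoipA-KO HFD replicate 2 or HoipA-KO HFD replicate 3, where the adjusted p in edgeR reached 0.0654 to 0.232 over the 6 genes at its highest. DESeq2's Wald test called all 6, and 12.1% of all genes as lower.

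**Figure D2:**
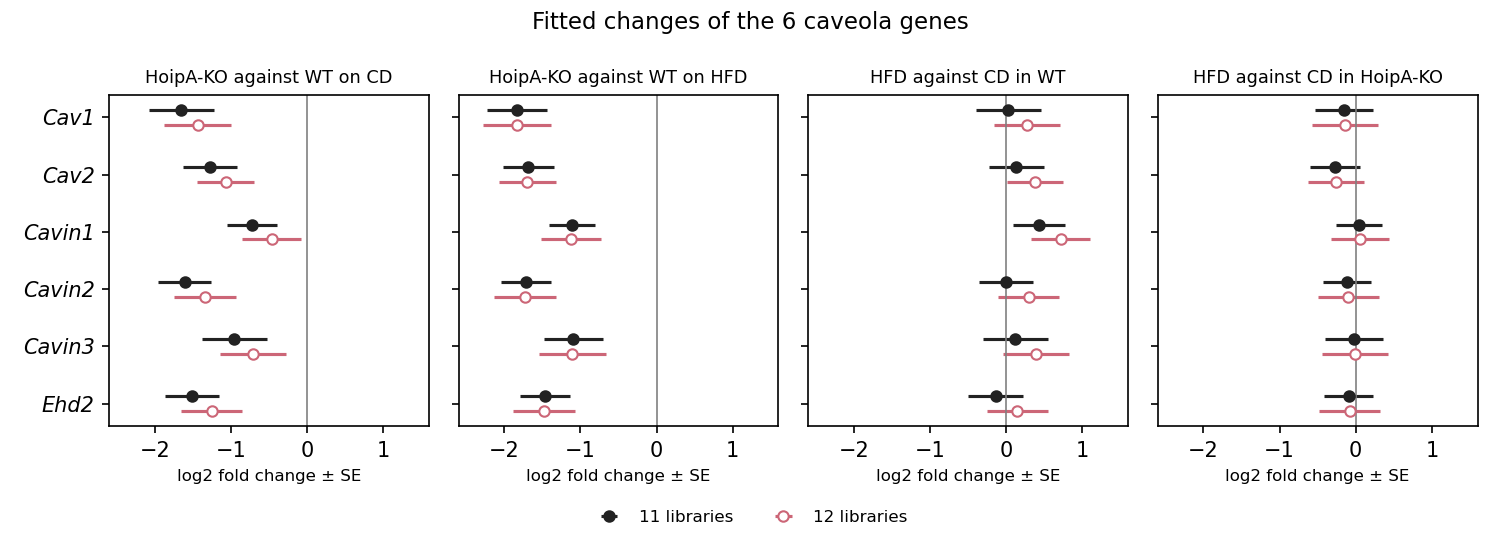
Log2 fold change with its SE for each member in 4 comparisons, fitted with 11 libraries (filled, without WT CD replicate 3) or 12 libraries (open). The 6 genes lie between -1.83 and -0.72 for HoipA-KO against WT with 11 libraries, between -0.14 and 0.43 for HFD against CD in WT and between -0.27 and 0.04 in HoipA-KO.

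On CD the same comparison of genotypes gave 4 of 6 genes lower past the threshold, Cav1, Cav2, Cavin2 and Ehd2, while 18.8% of all genes tested were called lower and 37.7% in either direction. The median log2 change of the 6 was -1.39 and that of all genes -0.06. These 4 were also the ones whose HoipA-KO CD libraries all lay below all 3 WT CD libraries, which held for 18.2% of all genes. The same 4 were called with 12 libraries in the fit, against 19.1% of all genes called lower, and the median change of all genes then stood at -0.21.

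Cav1 had 3854, 1268 and 1314 CPM in replicates 1, 2 and 3 of WT CD, and 849, 781 and 816 CPM in HoipA-KO CD. The knockout pools were nearly alike, whereas WT CD replicate 1 was far above its own group. The log2 change was -1.65 ± 0.422 without WT CD replicate 3, with an adjusted p of 0.0139 in edgeR, and -1.43 with it, with an adjusted p of 0.0303. Cav2 had 656, 259 and 238 CPM in WT CD and 183, 234 and 148 CPM in HoipA-KO CD, so that its highest knockout pool lay just under the lowest WT pool. Its log2 change was -1.28 ± 0.357 with an adjusted p of 0.02 in edgeR.

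Cavin2 had 759.7, 261 and 212 CPM in WT CD and 180.1, 149.6 and 171 CPM in HoipA-KO CD. As on the HFD, it had the smallest adjusted p of the 6, 0.00643 in edgeR, with a log2 change of -1.61 ± 0.347. Ehd2 had 1549, 576 and 476 CPM in WT CD and 384, 309 and 425 CPM in HoipA-KO CD. It fell by 1.51 ± 0.357 on the log2 scale, with an adjusted p of 0.00982 in edgeR.

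The remaining pair overlapped between genotypes on CD. Cavin1 had 1791, 732 and 552 CPM in WT CD and 776, 675 and 836 CPM in HoipA-KO CD, so that WT CD replicates 2 and 3 lay among or below the knockout pools. Its log2 change was -0.72 ± 0.331, with an adjusted p of 0.11 in edgeR and of 0.0467 in DESeq2, which called 23.3% of all genes lower. Cavin3 had 412, 153 and 134 CPM in WT CD and 119, 116 and 202 CPM in HoipA-KO CD. The log2 change of Cavin3 was -0.95 ± 0.422, with an adjusted p of 0.101 in edgeR.

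The changes on CD rested on WT CD replicate 1. Without it, and with WT CD represented by replicate 2 alone and assumed to vary like the other groups, 1 of 6 genes was called lower, Cavin2, with a log2 change of -0.65 and an adjusted p of 0.0289 in edgeR, while 20.2% of all genes were called lower. Cav1 was then at -0.64, Cav2 at -0.47, Ehd2 at -0.63, Cavin3 at -0.07 and Cavin1 at 0.06. When WT CD was represented by replicates 2 and 3 only, a setting chosen after seeing the data, Cavin2 was again the 1 called, at -0.50, against 24.4% of all genes, and Cavin1 stood at 0.25. WT CD replicate 1 also had the highest adipocyte markers, with 29610 CPM summed over 10 genes against 12570 and 8932 in replicates 2 and 3, and the highest endothelial markers, with 1543 CPM summed over 10 genes against 788.6 and 502.2. The part of these differences between the WT CD pools in the result was not tested. The fit to only the 2 groups on CD called 1 member lower, Cavin2, against 9.6% of all genes, and put Cav1, Ehd2 and Cav2 at adjusted p of 0.0521, 0.0552 and 0.0767 in edgeR.

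Diet was compared within each genotype to ask whether fat feeding itself changes the caveolar coat. In WT, 0 of 6 genes passed the test in edgeR, 0 had an unadjusted p under 0.05 and 0 were called by DESeq2, while 14.8% of all genes tested were called by edgeR and 24.7% by DESeq2. The log2 changes ran from -0.14 ± 0.361 for Ehd2 to 0.43 ± 0.338 for Cavin1, with adjusted p of 0.417 to 0.996 in edgeR. WT CD replicate 1 lay above all WT HFD pools for Cav1, Cav2, Cavin2, Cavin3 and Ehd2, and WT CD replicates 2 and 3 lay below all of them for all 6 genes. Without WT CD replicate 1, 3 genes were called higher on HFD, Cav2, Cavin1 and Cavin2, with log2 changes of 0.97, 1.23 and 0.98, against 14.5% of all genes. When WT CD was represented by replicates 2 and 3 only, all 6 were called higher, by 0.90 for Ehd2 to 1.42 for Cavin1, with adjusted p of 0.00321 to 0.0306 in edgeR, against 17.2% of all genes. The comparison of diets in WT thus depended on which WT CD pools entered it.

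In HoipA-KO the libraries of both diets overlapped for every member. The log2 changes for HFD against CD ran from -0.27 ± 0.324 for Cav2 to 0.04 ± 0.299 for Cavin1, and 0 of 6 genes passed the test in edgeR (adjusted p of 1 for each), 0 had an unadjusted p under 0.05 and 0 were called by DESeq2. HoipA-KO libraries of the same number deviated together on both diets, and within these pairs Cav2 and Cavin2 were lower on HFD in 3 of 3, Cav1, Cavin3 and Ehd2 in 2 and Cavin1 in 1. A fit of these pairs alone with the replicate as a block, chosen after seeing the data, put Cav2 at -0.24 ± 0.149 and Cavin2 at -0.10 ± 0.0917, and called 0 of 6, with adjusted p of 0.746 to 0.999 in edgeR, and 0% of all genes. None of the 6 had an unadjusted p under 0.05 in it, while 1300 genes did. Without the block 0% of all genes were called by edgeR, 415 had an unadjusted p under 0.05 and DESeq2 called 7 (0.038%). The interaction, which tests whether the genotypes differ by another amount on HFD than on CD, called 0 of 6 genes in edgeR, 0 at an unadjusted p under 0.05 and 0 in DESeq2, against 3.91% of all genes in edgeR and 12.8% in DESeq2. Its log2 values ran from -0.41 ± 0.488 for Cav2 to 0.04 ± 0.486 for Ehd2, with adjusted p of 0.65 to 0.971 in edgeR, and without WT CD replicate 1 it called Cav2, Cavin1 and Cavin2, with values of -1.23, -1.18 and -1.08, against 9.33% of all genes called lower. When WT CD was represented by replicates 2 and 3 only, it called the same 3, against 9.69%.

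The members did not move in equal measure, which was described within each library as the ratio of a member's counts to those of Cav1, a quantity that scaling does not touch. Cavin1 had 0.487 ± 0.0809 counts per count of Cav1 in WT CD and 0.935 ± 0.0818 in HoipA-KO CD (SD, n = 3). On HFD the ratio was 0.666 ± 0.0935 in WT and 1.10 ± 0.187 in HoipA-KO. Every knockout library lay above every WT library of its diet. Cavin3 also lay higher relative to Cav1 without overlap, at 0.11 ± 0.00983 in WT and 0.179 ± 0.0595 in HoipA-KO on CD, and at 0.119 ± 0.02 against 0.198 ± 0.0231 on HFD. Cav2 lay between 0.17 and 0.204 in WT and between 0.181 and 0.3 in HoipA-KO, and its libraries overlapped on both diets, as did those of Cavin2, which stayed between 0.161 and 0.269 throughout. For Ehd2 they overlapped on CD, while on HFD the lowest knockout library, at 0.402, stood level with the highest WT library. In 47.1% of all genes the ratio to Cav1 was higher in HoipA-KO in this way on both diets, so the shift is not particular to Cavin1 and Cavin3.

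**Figure D3:**
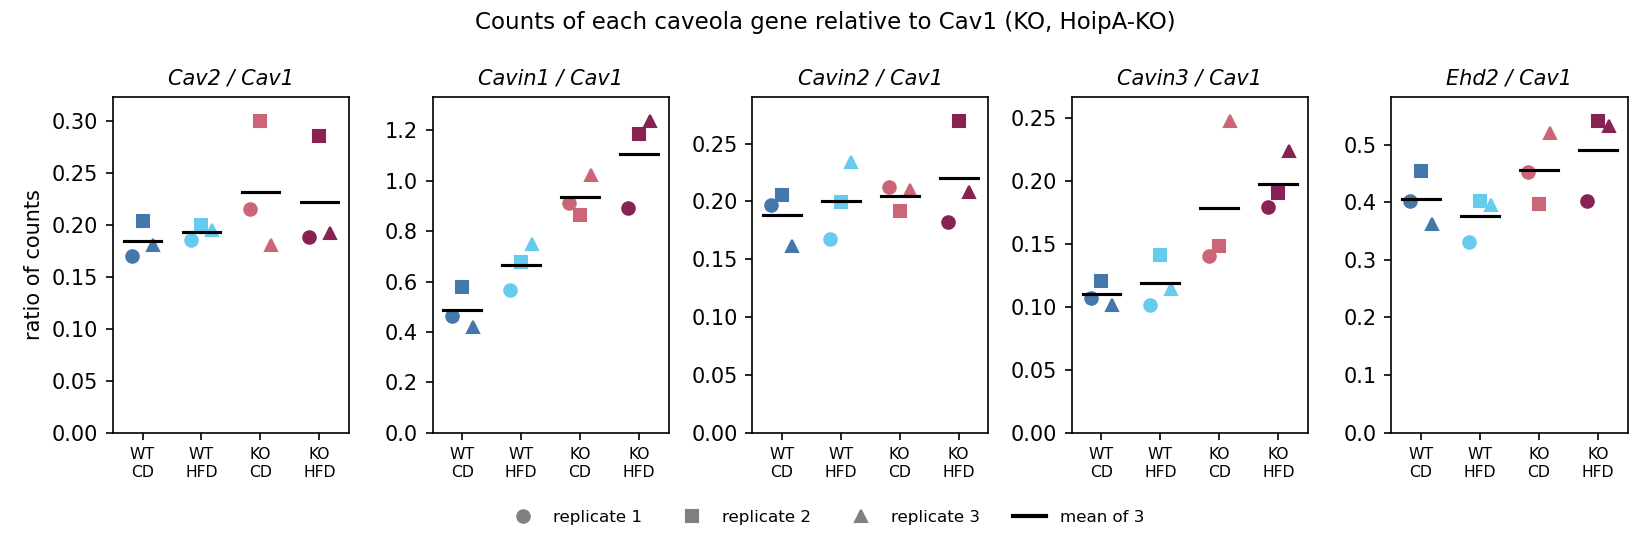
Ratio of the counts of each member to those of Cav1 in each library (vertical axes from 0), with 1 symbol per replicate and a line at the mean of 3. Cavin1 lies at 0.42 to 0.751 in WT and 0.865 to 1.24 in HoipA-KO, without overlap on either diet, while Cav2 and Cavin2 overlap on both.

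Likeness between genes was also measured over the 12 libraries, from log2(CPM + 1) after each gene's mean was removed. The measure was the root mean square difference between genes, and it draws on the same counts as the ratios, so it does not test them again. It was smallest between Cavin2 and Ehd2, at 0.149, then between Cav1 and Cavin2, at 0.191, and between Cav1 and Ehd2, at 0.215. Cavin1 and Cavin3 were nearest to each other, at 0.231, and Cav1 and Cavin1 were farthest apart, at 0.487. These values rest on the same libraries and share their depth and tissue makeup. Among all 10364 genes with a mean of at least 10 CPM, the pattern most like that of Ehd2 was that of Fgfrl1 at 0.0998, followed by Fitm2 at 0.115 and 1600014C10Rik at 0.125. Cavin2 was nearest to Abhd15 at 0.111, Ccdc80 at 0.115 and Fitm2 at 0.134, and Cav1 to Tcaf1 at 0.138, Cd1d1 at 0.15 and Prr16 at 0.151. Cav2 was nearest to Pkp2 at 0.148, Utrn at 0.157 and Prkar2b at 0.161. Cavin1 was nearest to Dram1 at 0.128, Hebp1 at 0.142 and Anxa6 at 0.145, and Cavin3 to Prxl2b and Hebp1, both at 0.15, and Phlda3 at 0.163. Without WT CD replicate 3, 3 of these 3 neighbours were kept for Cav1, Cav2 and Cavin2, 2 for Cavin1 and Cavin3, and 1 for Ehd2.

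Because adipocytes and endothelial cells both carry caveolae, marker lists of cell types were read beside the members. The counts called in each list stand against 18.8% of all genes called lower and 18.9% higher on CD, and 7.62% and 4.2% on HFD. Of the 10 adipocyte markers, 9 were lower on CD and 10 on HFD in HoipA-KO, with median log2 changes of -2.08 and -2.09. Their summed level ran from 8932 to 29610 CPM in WT CD, 12450 to 18860 in WT HFD, 3184 to 4527 in HoipA-KO CD and 2386 to 4142 in HoipA-KO HFD, and none was at 0 in any library. Of the 10 endothelial markers, 5 were lower on CD and 4 on HFD, with medians of -1.06 and -0.97. Their summed level ran from 502.2 to 1543 CPM in WT CD, 1075 to 1321 in WT HFD, 423 to 662 in HoipA-KO CD and 462 to 814 in HoipA-KO HFD, with none at 0. With 12 libraries 8 adipocyte markers were lower on either diet, and 1 endothelial marker on CD and 0 on HFD, against 19.1% of all genes on CD and 2.25% on HFD. Mural and smooth muscle cells bear caveolae as well. Of their 10 markers 1 was lower (Rgs5) and 1 higher (Pdgfrb) on CD, and 1 was lower on HFD (Cspg4), with medians of -0.29 and 0.68. These mural counts were near or below the shares of all genes. Their summed level ran from 391.5 to 759.7 CPM in WT CD, 672.7 to 1049 in WT HFD and 432.4 to 737.8 in HoipA-KO CD. In HoipA-KO HFD it was 4188 CPM in replicate 1 against 595.5 and 754.5 in replicates 2 and 3, and Myh11, the smooth muscle myosin, had 1418 CPM against 54.3 and 72.3. The same library had the highest level of its group for all members but Cavin1. Without it 4 members were called lower on HFD, with Cavin1 at -1.18 and an adjusted p of 0.0576 in edgeR. The share of all genes called in that fit is not given. The part of each of these cell types in the result was not tested.

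Set against the mean log2 level of the adipocyte markers of the same library, all 6 caveola genes lay higher in every HoipA-KO library than in every WT library on both diets. For Cav1 the difference in log2(CPM + 1) was 0.71 ± 0.233 in WT CD and 1.58 ± 0.376 in HoipA-KO CD, and 1.19 ± 0.0824 and 1.77 ± 0.18 on HFD (SD, n = 3). For Cavin1 it was -0.34 ± 0.0162 and 1.48 ± 0.272 on CD, and 0.59 ± 0.25 and 1.90 ± 0.136 on HFD. This is a statement about the mean of the list, in which Cfd, at -6.47 on CD and -4.96 on HFD, and Retn, at -4.15 and -3.11, changed most. Pparg, at -1.41 and -1.11, changed less than Cav1 on both diets. Lying higher than the mean of the markers in this way held for 75% of all genes, so it is not particular to caveola genes. Set against the endothelial markers instead, 4 members lay lower in every HoipA-KO HFD library than in every WT HFD library, namely Cav1, Cav2, Cavin2 and Ehd2, a pattern shown by 2.21% of all genes. For Cav1 this difference on HFD was 4.77 ± 0.138 in WT and 3.83 ± 0.42 in HoipA-KO, and for Cavin2 2.43 ± 0.102 and 1.63 ± 0.403. Cavin1, at 4.17 ± 0.0757 and 3.96 ± 0.197, and Cavin3, at 1.69 ± 0.231 and 1.49 ± 0.269, overlapped. On CD 0 of 6 lay lower in this way, against 2.86% of all genes, and Cavin1 lay higher, at 3.69 ± 0.201 in WT and 4.08 ± 0.191 in HoipA-KO.

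Macrophage markers moved the other way, and the counts of the lists below stand against 18.9% of all genes called higher and 18.8% lower on CD. On HFD these shares were 4.2% and 7.62%. Of 9 macrophage markers, 9 were higher on CD and 2 on HFD in HoipA-KO, with medians of 4.08 and 1.03 and a summed level from 369.8 to 525.8 CPM in WT CD, 1669 to 5029 in WT HFD, 8310 to 12400 in HoipA-KO CD and 5939 to 10320 in HoipA-KO HFD. Of 10 progenitor and fibroblast markers, 5 were higher on CD and 0 on HFD. Mesothelial markers gave 0 of 8 on either diet, and of the 4 skeletal muscle markers tested 1 was lower and 1 higher on CD. Testis germ cell markers were called lower on CD in 8 of 8, where WT CD replicate 1 had 18.8 CPM in sum and replicate 2 had 460.0, and epididymal epithelium markers in 1 of 10. On HFD both gave 0. Epididymal markers summed to 1287 CPM in HoipA-KO HFD replicate 1, where Crisp1 alone had 1282.3 CPM. They summed to 122.6 CPM in HoipA-KO HFD replicate 3, where none of the 10 was at 0.

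**Figure D4:**
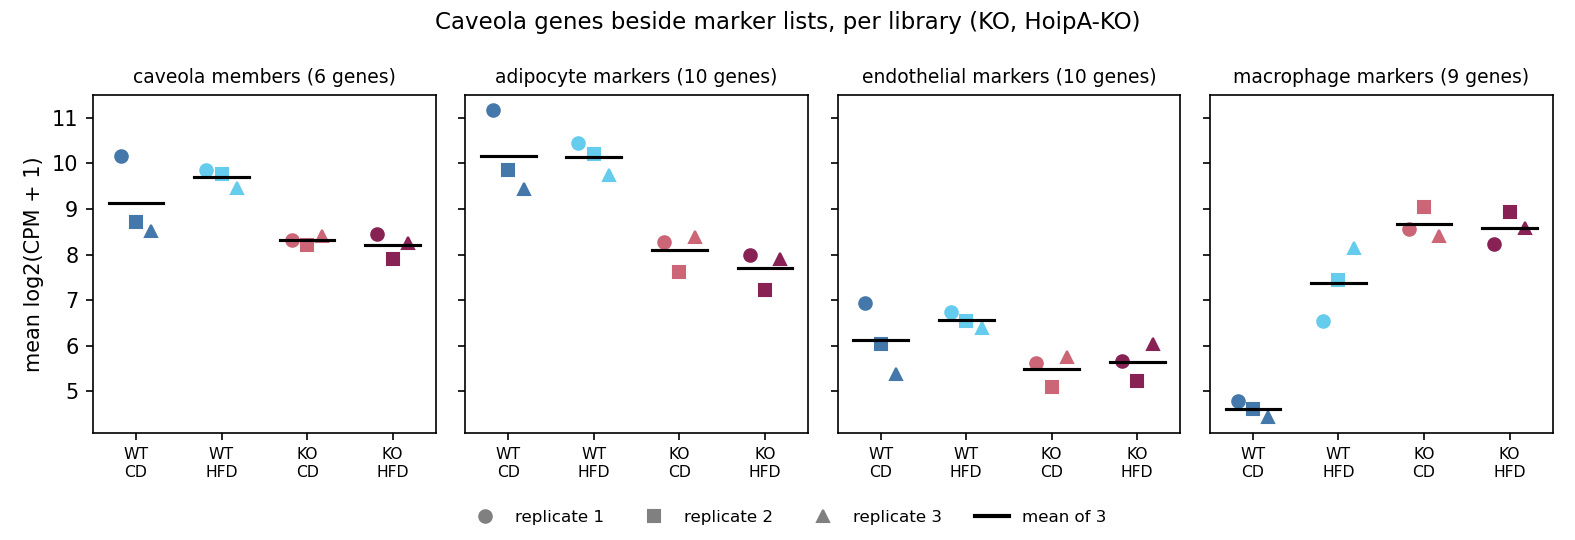
Mean log2(CPM + 1) of the 6 caveola genes and of adipocyte, endothelial and macrophage markers in each library (KO, HoipA-KO), with 1 symbol per replicate and a line at the mean of 3. Comparing WT with HoipA-KO on HFD, caveola genes averaged 9.69 and 8.20, adipocyte markers 10.1 and 7.71, endothelial markers 6.56 and 5.64 and macrophage markers 7.37 and 8.58.

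A list of 15 neck and accessory genes, which also holds the flotillin genes Flot1 and Flot2, did not follow the coat. Of the 15, 1 was lower and 6 were higher in HoipA-KO on CD, against 18.8% of all genes called lower and 18.9% called higher. On HFD 1 was lower and 0 were higher, against 7.62% of all genes called lower and 4.2% called higher. The counts called lower were near or below the shares of all genes on both diets. The median log2 changes were 0.54 on CD and 0.22 on HFD. All 9 macrophage markers were higher in the same comparison, with a median of 4.08, and their part in these rises was not tested. Ehd4, a relative of Ehd2, had 73.5, 52.6 and 34.7 CPM in WT CD and 366, 424 and 313 CPM in HoipA-KO CD. It rose by 2.55 ± 0.334 on the log2 scale, with an adjusted p of 0.000677 in edgeR, where Ehd2 fell. Flna, whose product filamin A anchors caveolae to actin, rose by 1.64 ± 0.249. Fyn, a kinase of the Src family that acts on caveolin, rose by 1.44 ± 0.248, Dnm1, a dynamin that cuts membrane necks, by 1.92 ± 0.225, and Abl1, a kinase linked to caveolar traffic, by 0.56 ± 0.186. Pacsin1 passed too, at 1.91 ± 0.574, but from 0.167 and 0.447 CPM in WT CD, and it was at -1.32 and not called with WT CD replicate 3, which had 7.96 CPM. Abl1 was not called with that library either. On HFD these 6 had log2 changes of 0.26 to 0.88, and none passed, with adjusted p of 0.0504 to 0.419 in edgeR. DESeq2 called 4 of the 15 higher on HFD, Ehd4, Flna, Dnm1 and Src, and 1 lower, against 2178 and 2232 of all 18427 genes.

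Pacsin3, of the membrane-bending PACSIN family, was the one lower on CD, with 36.5, 24.5 and 16.4 CPM in WT CD and 8.12, 3.53 and 8.16 CPM in HoipA-KO CD. Its log2 change was -2.20 ± 0.474 with an adjusted p of 0.0063 in edgeR. In WT it was lower on HFD than on CD as well, at -1.62 ± 0.47, and 5 other genes of this group were higher on HFD in WT, Ehd4 at 1.72, Dnm1 at 1.53, Fyn at 1.32, Dnm3 at 1.17 and Flna at 1.02, where 5.47% of all genes were called lower and 9.35% higher. Macrophage markers rose there too, 9 of 9 with a median of 2.95, and their part was again not tested. Ehd3 was the one lower in HoipA-KO on HFD, with 118, 47.7 and 43.4 CPM in WT HFD and 23.8, 18.8 and 18.2 CPM in HoipA-KO HFD. Its change was -1.78 ± 0.501 on the log2 scale with an adjusted p of 0.048 in edgeR, and WT HFD replicate 1 held more than the other 2 WT pools. Ehd1, Pacsin2, Dnm2, Src, Flot1 and Flot2 did not pass in edgeR in these 3 comparisons. With 12 libraries the counts on CD were 1 lower and 5 higher, against 3458 lower and 2812 higher of all 18074 genes tested. On HFD they were 0, against 407 lower and 96 higher. For diet in WT they were 0 lower and 3 higher, against 1079 and 1636. Dnm3 then stood at -0.01, with 19.9 CPM in WT CD replicate 3, and Dnm1 at 1.00 and Pacsin3 at -1.39 were not called either.

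Most RNAs of a list of partners, whose proteins act in or near caveolae in adipocytes or, for Nos3, in endothelium, were lower as well. Of 11 such genes, 7 were lower and 1 was higher in HoipA-KO on CD, against 18.8% and 18.9% of all genes. On HFD 8 were lower and 0 higher, against 7.62% and 4.2%, and the medians were -1.56 and -1.17. Among insulin signalling genes, Insr, the insulin receptor, was lower by 1.25 ± 0.176 on CD and 0.95 ± 0.161 on HFD, given as falls on the log2 scale. Its levels were 137, 117 and 69.2 CPM in WT CD, 107, 100.4 and 82.3 in WT HFD, 51.6, 64.2 and 44.1 in HoipA-KO CD and 50.2, 50.3 and 49.7 in HoipA-KO HFD, without overlap on either diet. Irs1, its docking protein, was at -1.82 and -1.01. Slc2a4, the insulin-responsive glucose transporter GLUT4, was at -2.48 and -1.72. Rhoq, the small GTPase TC10, was called on HFD, at -1.17, and stood at -0.71 with an adjusted p of 0.0988 in edgeR on CD.

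Among the rest, Aoc3, an amine oxidase abundant in the adipocyte surface, was at -2.37 on CD and -2.02 on HFD. Nos3, the endothelial nitric oxide synthase that caveolin-1 binds, was at -1.56 and -1.73. Lipe and Plin1, of the lipid droplet, are also among the 10 adipocyte markers and were at -2.14 and -2.03 and at -2.01 and -2.02. The fatty acid carriers differed from these. Cd36 had 4700.3, 1994.5 and 1513 CPM in WT CD and 6526, 9063 and 4983 CPM in HoipA-KO CD, with a log2 change of 1.04 ± 0.463 and an adjusted p of 0.103 in edgeR, and on HFD it was at 0.00 ± 0.4. Slc27a1 stood at -0.12 ± 0.301 and -0.36 ± 0.27 without passing. Gnai2, a G protein subunit, rose on CD by 1.14 ± 0.217, with an adjusted p of 0.00352 in edgeR. All 9 macrophage markers were higher on CD too, with a median of 4.08, and their part in the values of Cd36 and Gnai2 was not tested. For diet in WT, 1 of the 11 was called lower on HFD, Irs1, at -1.01 with an adjusted p of 0.0359 in edgeR, against 5.47% of all genes. Irs1 had 57.5, 28.9 and 17.4 CPM in WT CD and 20.7, 25.6 and 17.7 CPM in WT HFD, so the groups overlapped. With 12 libraries Irs1 was at -0.70 and not called. With 12 libraries 6 partners were lower on CD and 3 on HFD, against 19.1% and 2.25% of all genes, and the 3 were Aoc3, Lipe and Plin1. For the fits that follow, the share of all genes called is not given, so their counts show only how the calls moved. Over both groups, 26 genes, the count called on HFD was 0 without WT HFD replicate 1, WT HFD replicate 2 or HoipA-KO HFD replicate 2, 4 without HoipA-KO HFD replicate 3, 5 without HoipA-KO CD replicate 1, 14 without WT CD replicate 1 and 15 without WT CD replicate 2, where it was 9 with 11 libraries. Between diets in WT it was 14 without WT CD replicate 1, and 3 or 4 without WT CD replicate 2 or any 1 of the WT HFD replicates.

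**Figure D5:**
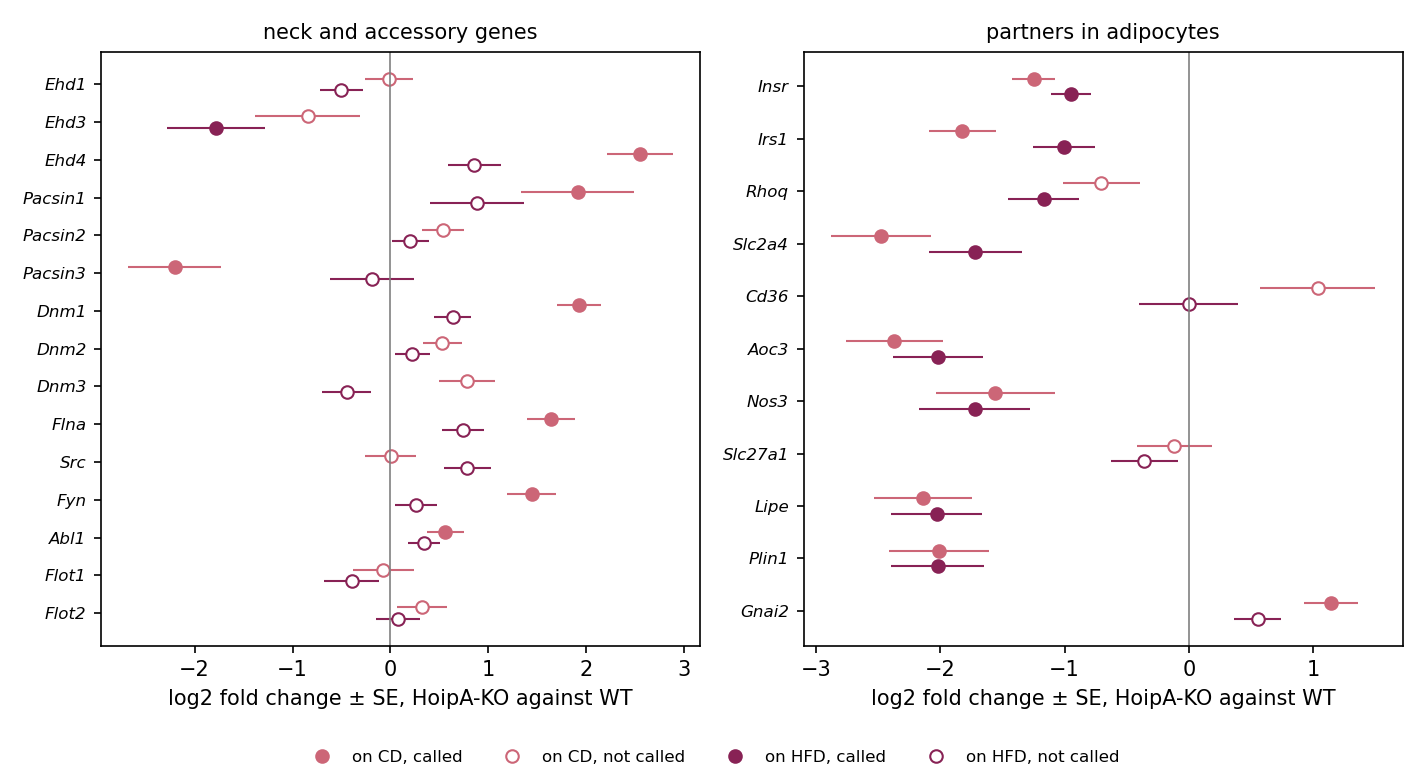
Log2 fold change with its SE, HoipA-KO against WT on CD and on HFD (11 libraries, without WT CD replicate 3), of 15 neck and accessory genes (left) and 11 partners in adipocytes (right), filled where the adjusted p in edgeR was under 0.05. Ehd4 stands at 2.55 on CD and Slc2a4 at -2.48, and on HFD 8 of the 11 partners are filled below 0.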

How the data were processed

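GWAT libraries of 4 groups (WT or HoipA-KO, CD or HFD, 3 pools each) were grouped by their labels. Per the study's methods and the submitters' processing notes, the authors trimmed reads with Trim Galore (0.6.7), aligned them with STAR (2.7.10a) and deposited estimated counts per gene from Salmon (1.5.2) without normalization, of which 11.5% were not whole. The notes name GRCm38 and the methods a human assembly; 94% of the mouse gene identifiers were in GENCODE vM21, whose positions are used. The authors' own tables of fold changes and p-values were not used.

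Estimated counts of 11 libraries were rounded, filtered with filterByExpr (18427 genes), normalized by TMM and fitted in 1 model of the 4 groups with edgeR 4.0.16 in R 4.3.3, with the quasi-likelihood test, Benjamini-Hochberg adjustment over all genes at 0.05 and a prior count of 0.125. The SE of a log2 change is its size divided by the square root of F. Printed CPM are TMM-scaled over 12 libraries, and levels per kb use the longest principal transcript. With totals of 30513500 to 60540260 counts, counting error is small for the members and the spread between pools sets the precision. The fit was tested on simulated data.

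Alternatives were all 12 libraries, other scalings and filters, protein-coding genes only, DESeq2 1.42.0, a replicate block, also in HoipA-KO alone, a fit to the groups compared alone, a threshold of 0.01 and leaving out each library in turn. The members, the 2 lists of other caveola genes, the marker lists and the tests were chosen with earlier results of these data known. Deviations from the group mean of HoipA-KO CD and HoipA-KO HFD libraries of the same number correlated at 0.155 to 0.515 across genes in 3 of 3 pairs. The labels give no pairing, and libraries of different number were not compared. Over WT CD and WT HFD the correlation was -0.00485 to 0.03, and over WT CD and HoipA-KO CD -0.0855 to 0.097. Over WT HFD and HoipA-KO HFD it was -0.0424 to 0.385. Genes named are all members, the genes of these 2 lists by the test, and the 3 genes nearest to each member. A gene first listed among the partners is not reported here, for a reason unrelated to its values, and the counts of partners are without it.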

Additional observations from a re-analysis of the deposited data

How the results depend on the processing

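Of 660 values of the 6 members over the alternatives, 545 kept their direction and their side of the threshold, 42 lost the call, 20 gained one and 53 changed sign. All changes of sign were in values that missed the threshold with 11 libraries. The cause of the differences between settings was not tested, beyond the smaller numbers of libraries or genes that some settings use. The share of all genes called moved with the setting too. On HFD it was 2.25% called lower with 12 libraries and 12.1% with DESeq2. The counts called below stand without that share, and so show only how the calls moved. On CD the values depend on WT CD replicate 1, and on HFD the sizes hold while the calls depend on single pools. Depth limits Cav3 and Pacsin1, near the floor, and none of the members.

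With all 12 libraries the members called were 1 on HFD, and the other 26 caveola genes called were 3 on HFD and 3 for diet in WT. A threshold of 0.01 left 2 members on CD and 0 on HFD, and 0 other genes on HFD and 2 for diet in WT. The fit to only the groups compared called 1 member on CD and 0 other genes for diet in WT. WT CD represented by replicates 2 and 3 only, added after seeing the data, gave 1 member on CD, 6 for diet in WT and 3 in the interaction, and 12 other genes for diet in WT. Replicates 1 and 3, also added after seeing the data, gave 3 members on HFD, and 4 other genes on HFD and 2 for diet in WT. DESeq2 called 5 members on CD and 6 on HFD, and 14 other genes on HFD.

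Leaving out 1 library at a time, the members called ranged from 1 to 6 on CD, 0 to 6 on HFD, 0 to 3 for diet in WT and 0 to 3 in the interaction, and the other genes called from 0 to 15 on HFD and 3 to 14 for diet in WT. The log2 values that changed sign then ranged from -1.23 to 0.057 for Cavin1 on CD. For diet in WT they ranged from -0.57 to 1.05 for Cav1, -0.39 to 0.97 for Cav2, -0.077 to 1.23 for Cavin1, -0.58 to 0.98 for Cavin2, -0.42 to 1.02 for Cavin3 and -0.68 to 0.76 for Ehd2. For diet in HoipA-KO they ranged from -0.39 to 0.042 for Cav1, -0.036 to 0.19 for Cavin1, -0.16 to 0.30 for Cavin3 and -0.21 to 0.041 for Ehd2. For the interaction they ranged from -1.19 to 0.41 for Cav1, -1.23 to 0.11 for Cav2, -1.18 to 0.12 for Cavin1, -1.08 to 0.47 for Cavin2, -1.03 to 0.41 for Cavin3 and -0.85 to 0.59 for Ehd2.

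Other changes of sign were as follows. For diet in WT, Cav1 was at -0.0074 with DESeq2's size factors and with its Wald test, -0.036 with no filter, -0.035 with protein-coding genes and -0.038 with only the groups compared. Cavin2 was at 0.30 with 12 libraries, 0.092 with library size only, 1.13 with WT CD replicates 2 and 3 and 0.061 with replicates 1 and 3, and Ehd2 at 0.15 with 12 libraries and 0.90 with replicates 2 and 3. For diet in HoipA-KO, Cavin3 was at 0.098 and Ehd2 at 0.016 with library size only, and Cavin3 at 0.0073 with at least 10 counts in every library. The interaction of Ehd2 was at -0.23 with 12 libraries, -0.98 with WT CD replicates 2 and 3 and -0.0075 with replicates 1 and 3. On CD, with replicates 2 and 3, Cavin1 was at 0.25 and Cavin3 at 0.024.

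Only between HoipA-KO CD and HoipA-KO HFD did all 3 pairs of the same number have correlations of deviations over 0.1, at 0.155 to 0.515. Single pairs reached 0.319 between WT HFD and HoipA-KO CD and 0.385 between WT HFD and HoipA-KO HFD. In all, 5 of 18 were over 0.1. Libraries of different number were not compared, so a pairing is not established. A replicate block called 4 members on CD and 5 on HFD, as without it, and put Cavin2 at 0.14 for diet in WT and the interaction of Ehd2 at -0.072. The block fitted to the HoipA-KO groups alone, added after seeing the data, put Cavin3 at 0.0031 for diet in HoipA-KO, and no member gained or lost a call with either block.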
